A study of Mus musculus with 12 samples.

Results

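Transcripts of the aminoacyl-tRNA synthetases were examined in mouse liver with and without ER stress. The mice were wild type or had a liver-specific loss of Atf4, the gene of the transcription factor ATF4. The set was given as a list of 40 gene symbols, and each symbol matched exactly 1 of the 27109 loci in the authors' deposited table. It holds 20 genes of cytosolic enzymes, whose symbols carry no final 2, and 16 genes of mitochondrial enzymes, whose symbols end in 2. The remaining 4 are the scaffold proteins Aimp1, Aimp2 and Eef1e1 and the threonyl-tRNA synthetase-like gene Tarsl2. Tarsl2 and Aimp2 end in 2 without being known as mitochondrial enzymes, so they were kept out of the mitochondrial class.

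Livers came from C57BL/6 mice that were either wild type or carried a liver-specific loss of Atf4 (LsATF4-/-). Mice of each genotype received an intraperitoneal injection of tunicamycin at 1 mg/kg, which blocks N-linked glycosylation and so disturbs protein folding in the ER, or of 0.3% DMSO as vehicle, and livers were taken after 6 h. Each of the 4 groups holds 3 libraries of poly(A)-selected RNA. The sources used here do not give the promoter that drove the deletion, the ages of the mice or whether wild-type mice carried a floxed allele. They do not say whether a library is 1 mouse either, so the p-values measure the spread between libraries, which may be partly technical. The study asked what the loss of ATF4 changes without stress and during tunicamycin.

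An aminoacyl-tRNA synthetase joins an amino acid to the tRNA that reads its codons, and each amino acid has its own enzyme. The cytosol and the mitochondria mostly use enzymes from separate nuclear genes, with Gars and Kars as known exceptions that supply both compartments. ATF4 is translated when the eIF2 kinases, PERK among them during ER stress, phosphorylate eIF2α, and cytosolic synthetase genes are well-known members of the gene programme it drives together with genes of amino acid synthesis and uptake. Several cytosolic enzymes are held with the scaffold proteins in the multi-synthetase complex.

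The table gives 1 FPKM value (fragments scaled by transcript length and by library size) per locus and group, pooled over the libraries, so no value per library can be shown and the depth is unknown. A member is said to have risen or fallen where Cuffdiff's q in the authors' deposited table was under 0.05. Standard errors (SE) of log2 fold changes were derived from the deposited test statistics. Atf4 lies in a locus merged with Cacna1i, which with DMSO read 46.9 FPKM (wild type) and 22.8 (knockout), and with tunicamycin 356 and 114. By their titles the knockout DMSO libraries came from sequencing lane 5 and the libraries of the other groups from lane 4. In comparisons with knockout DMSO, lane and group therefore cannot be told apart. Of 8 hepatocyte markers 7 reached 1 FPKM in each group, with Alb listed at 0, and their sum was 21599.6 and 12150.5 FPKM in wild type with DMSO and tunicamycin, against 17065 and 9952 in the knockout. In the knockout tunicamycin group, markers of other tissues were present: 5 of 5 of adrenal cortex summed to 932 FPKM and 6 of 6 of skeletal muscle to 304. In the other groups those sums ranged from 2.69 to 5.56 FPKM and from 1.67 to 4.38. Of 4 fat markers 3 reached 1 FPKM there, with a sum of 42.5 FPKM against 2.07 to 8.37. The part these tissues have in the knockout tunicamycin values below was not tested. Endothelial markers summed to 38.9 and 60.1 FPKM in wild type and to 65.3 and 46.9 in the knockout, in the order DMSO, tunicamycin, and macrophage markers ranged from 126 to 156. In bulk liver, fewer cells of a type and less RNA per cell cannot be told apart.

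ATF4 binds DNA with partners of the C/EBP family at a composite element written TGATGNAA here. RefSeq promoter windows (build GRCm38.p6, 250 bases before to 50 after the annotated start) were searched for these letters on both strands, and 31 of the 40 members had a window, Mars under its newer name Mars1. No window was given for Cars, Hars, Lars, Nars, Rars, Vars, Wars, Hars2 and Pars2. Of the 13 cytosolic enzymes with a window, 5 held the letters at least once, namely Aars, Gars, Iars, Tars and Yars. None of the 14 mitochondrial enzymes with a window did, nor did Tarsl2 or the 3 scaffold genes. A match was found in 4.51% of the 27025 genes with a window, or 3.97% of all 32851 windows given. The matches are printed because 3 of these 5 genes were called lower in the stressed knockout, where 2.19% of tested loci were. This is described further on. Each line gives 30 bases 5′ to 3′ on the gene's strand with the matching letters in capitals, which read TTNCATCA where the match lies on the opposite strand.
Aars, chr8:111033840-111033869, plus strand: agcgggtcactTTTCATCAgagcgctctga
Gars, chr6:55037960-55037989, plus strand: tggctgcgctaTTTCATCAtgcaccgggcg
Iars, chr13:49682126-49682155, plus strand: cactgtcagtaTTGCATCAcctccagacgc
Tars, chr15:11399655-11399684, minus strand: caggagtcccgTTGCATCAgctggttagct
Yars, chr4:129189895-129189924, plus strand: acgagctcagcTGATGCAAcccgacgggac

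Counted from 1 at the annotated start, with no 0, the matches shown began at 10 in Aars, -30 in Gars, 8 in Iars, -15 in Tars and 4 in Yars. Those of Iars, Yars and Aars lie just after the start, and those of Tars and Gars before it. A match is a run of letters and was not tested as a binding site. The 250 bases upstream of the start are given for Gars and Tars, which hold a match there, and for Qars, which holds none. Qars was chosen after its values were seen, because it rose 2.39-fold in wild type and 2.20-fold in the knockout.
Gars, chr6:55037751-55038000, plus strand: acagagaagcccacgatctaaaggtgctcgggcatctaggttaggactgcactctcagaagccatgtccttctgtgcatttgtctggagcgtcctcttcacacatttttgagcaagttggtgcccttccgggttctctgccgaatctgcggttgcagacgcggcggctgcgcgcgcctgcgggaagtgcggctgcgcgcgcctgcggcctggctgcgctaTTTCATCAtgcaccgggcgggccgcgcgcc
Tars, chr15:11399659-11399908, minus strand: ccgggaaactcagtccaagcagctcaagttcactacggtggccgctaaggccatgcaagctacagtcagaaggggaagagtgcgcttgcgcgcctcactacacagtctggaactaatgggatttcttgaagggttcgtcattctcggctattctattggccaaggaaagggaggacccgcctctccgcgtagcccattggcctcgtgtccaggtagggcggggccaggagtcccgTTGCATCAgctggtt
Qars, chr9:108507755-108508004, plus strand: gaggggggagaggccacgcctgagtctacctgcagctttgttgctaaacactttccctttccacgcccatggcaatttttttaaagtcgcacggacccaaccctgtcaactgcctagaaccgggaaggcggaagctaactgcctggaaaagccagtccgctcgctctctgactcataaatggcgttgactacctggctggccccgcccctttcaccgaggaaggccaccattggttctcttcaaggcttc

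In wild-type liver, tunicamycin raised nearly the whole cytosolic set. Of 20 cytosolic enzymes 18 rose and 0 fell, where 18.1% of the 14998 tested loci rose. Their median log2 fold change was 1.29, a 2.45-fold rise, against -0.02 over all tested loci. The summed FPKM of the 20 genes went from 539 to 1427, and 13 of them were at least 2-fold higher. Before stress the levels spanned 7.33 FPKM (Cars) to 85.1 (Aars), and with tunicamycin 13.1 (Cars) to 184 (Nars).

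**Figure D1:**
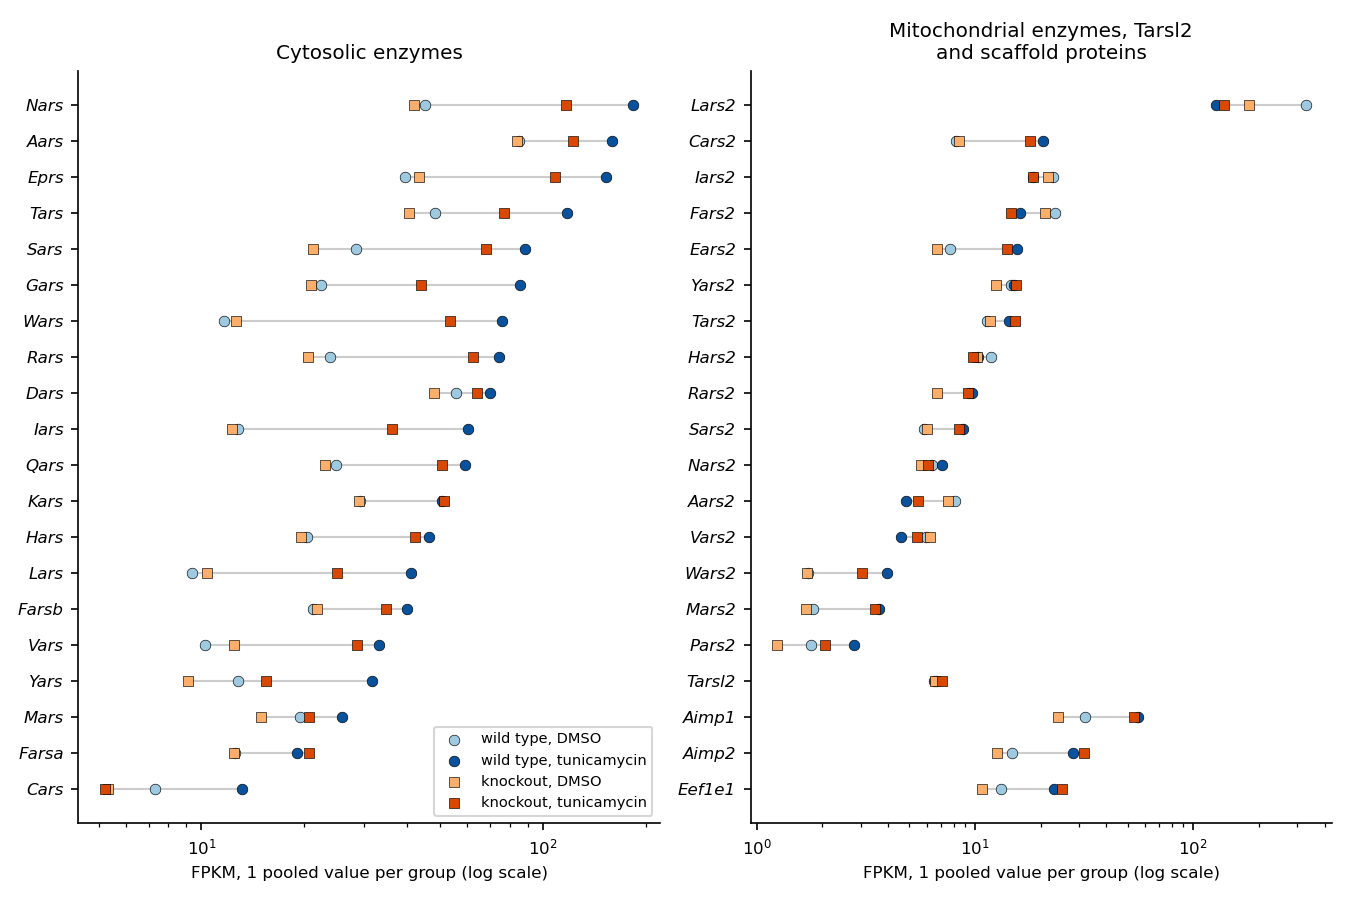
Level of each gene in FPKM on a log axis, 1 pooled value per group. Circles are wild type and squares knockout, pale for DMSO and dark for tunicamycin. The dark circles of the cytosolic enzymes stand right of the pale ones in all 20 rows, whereas the mitochondrial enzymes move either way and Lars2 stands apart at 327 FPKM in wild type with DMSO.

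Wars, the tryptophanyl enzyme (mm9 chromosome 12, 110098240 to 110132384), rose most. It read 11.6 FPKM in wild type with DMSO and 75.9 with tunicamycin, and 12.6 and 53.3 in the knockout. The wild-type change was 6.52-fold (log2 2.71, SE 0.22, q 0.000396 in the authors' deposited table, the smallest q it gives). Iars, which charges isoleucine (chromosome 13, 49777499 to 49829636), read 12.8 and 60.3 FPKM in wild type and 12.3 and 36.1 in the knockout. Its wild-type change was 4.70-fold (log2 2.23, SE 0.20). In both genes the levels before stress nearly coincided and the stressed knockout stood between the unstressed groups and stressed wild type.

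Lars, the leucyl enzyme (chromosome 18, 42362000 to 42421811), read 9.39 and 40.9 FPKM in wild type and 10.4 and 24.9 in the knockout, a 4.36-fold rise in wild type. Nars, which charges asparagine (chromosome 18, 64659301 to 64676211), read 44.97 and 184 FPKM in wild type and 41.9 and 117 in the knockout, a 4.08-fold rise in wild type. Eprs, a fused enzyme for glutamate and proline (chromosome 1, 187186974 to 187252234), read 39.3 and 153 FPKM in wild type and 43.4 and 109 in the knockout, a 3.88-fold rise in wild type. These genes and Gars (3.83-fold) each had the smallest deposited q, 0.000396 in the authors' deposited table. Vars, Rars, Sars, Yars, Tars, Qars and Hars, the enzymes for valine, arginine, serine, tyrosine, threonine, glutamine and histidine, rose by 3.24, 3.13, 3.11, 2.46, 2.44, 2.39 and 2.28-fold. Smaller rises were those of Farsb (1.88-fold), Aars (1.86-fold), Cars (1.79-fold), Kars (1.74-fold) and Farsa (1.52-fold), which charge phenylalanine (Farsa and Farsb as subunits of 1 enzyme), alanine, cysteine and lysine.

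The 2 cytosolic enzymes that did not pass the test were Dars and Mars. Dars, for aspartate, read 55.5 and 69.8 FPKM in wild type and 47.8 and 64.2 in the knockout (log2 0.33 in wild type, q 0.218 in the authors' deposited table). Mars, for methionine, read 19.4 and 25.8 FPKM in wild type and 15.0 and 20.7 in the knockout (log2 0.41, q 0.545 in the authors' deposited table). The locus of Mars has the same mapped interval as Ddit3, the gene of the stress factor CHOP, which went from 15.2 to 2385 FPKM in wild type and from 10.0 to 2066 in the knockout. The SE of the Mars fold change was 0.60 in wild type and 0.72 in the knockout, against 0.19 for Dars in both. The counting is not stated to use strand, and how reads were shared between Mars and Ddit3 was not tested.

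In the knockout the cytosolic enzymes rose as well, by less at the median. Of 20, 16 rose and 0 fell, where 18.1% of the 15534 tested loci rose, and all 16 had also risen in wild type. The median log2 fold change was 1.09, a 2.13-fold rise, against 0.01 over all tested loci, and the summed FPKM went from 503 to 1046. Wars again rose most (4.22-fold), followed by Sars (3.21-fold), Rars (3.03-fold), Iars (2.94-fold) and Nars (2.79-fold), each at the smallest deposited q, 0.000396 in the authors' deposited table. Not called were Cars, Dars, Mars and Yars. Cars read 5.33 FPKM with DMSO and 5.21 with tunicamycin (log2 -0.03, SE 0.23, q 0.957 in the authors' deposited table). Yars read 9.13 and 15.4 FPKM (log2 0.76, SE 0.48, q 0.283 in the authors' deposited table), and its mapped interval also holds the gene C77080 at 22.7 to 32.8 FPKM. Lane and treatment cannot be told apart in the knockout comparison.

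The responses of the genotypes share no library, so their difference was tested directly at all 14510 loci tested in both genotypes. At an adjusted p under 0.05, 0.992% of those loci differed and none of the 40 members did. Of the 20 cytosolic enzymes 15 had the smaller change in the knockout, where 6611 of the 14510 loci had a difference below 0. The median difference, knockout minus wild type, was -0.36 on the log2 scale against 0.04 over all loci. At an unadjusted p under 0.05 the difference was above 0 for 0 of the 20, where 387 of the 14510 loci had such a difference. It was below 0 for 6 of the 20, where 2.56% of all loci had such a difference. The 6 were Gars, Cars, Lars, Iars, Eprs and Wars, whose rise was smaller or absent in the knockout. Over all loci the counts go by sign alone, so they can include loci that fell more in the knockout.

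**Figure D2:**
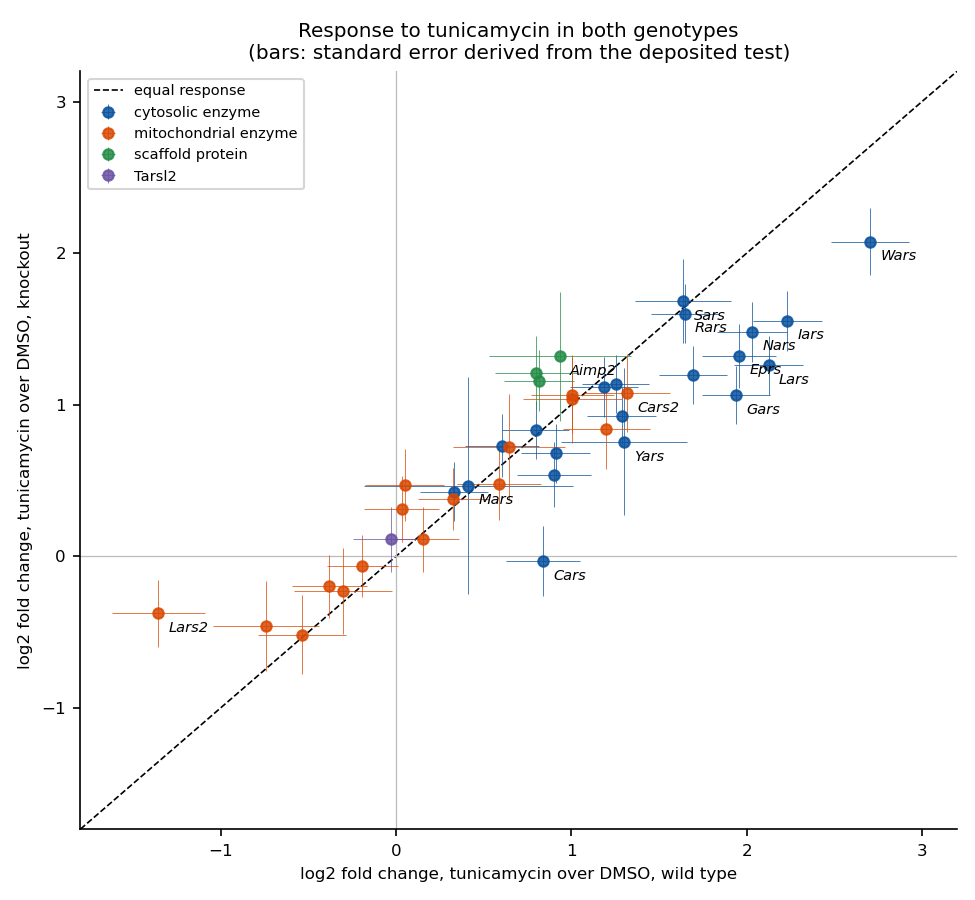
Log2 fold change with tunicamycin in wild type (horizontal axis) against the knockout (vertical axis), with bars of 1 SE and a dashed line of equal response. Most cytosolic enzymes with large changes, such as Wars, Iars and Lars, lie below the line, Rars and Sars lie on it, and the 3 scaffold genes lie above it.

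Gars, for glycine (chromosome 6, 54987989 to 55030715), had the smallest p of the set. It read 22.4 and 85.8 FPKM in wild type and 20.9 and 43.8 in the knockout, so the rise was 3.83-fold against 2.09-fold. The difference was -0.87 on the log2 scale (95% interval -1.41 to -0.34, p 0.00136, adjusted p 0.108 over all loci in the normal test of the difference). Cars had a difference of the same size (-0.87, 95% interval -1.48 to -0.25, adjusted p 0.274), as did Lars (-0.86, -1.41 to -0.32, adjusted p 0.131). Iars followed at -0.68 (-1.22 to -0.13), Eprs at -0.63 (-1.22 to -0.05) and Wars at -0.63 (-1.24 to -0.02). At the other end Dars (0.09), Farsa (0.12), Sars (0.05), Mars (0.05) and Kars (0.04) had differences above 0, and Rars (-0.05), Hars (-0.07) and Qars (-0.12) lay just under it. The interval for Rars, -0.59 to 0.49, still spans a smaller or larger response in the knockout. With standard errors taken from the deposited p-values instead, 1 of the 20 cytosolic enzymes had a smaller response at an unadjusted p under 0.05.

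Compared with wild type under tunicamycin, knockout livers had less transcript of several cytosolic enzymes. These values share the stressed libraries with the responses above and are set beside them, not added to them. Of 20 cytosolic enzymes 6 were called lower and 0 called higher, where 2.19% of 14919 tested loci were lower and 3.73% were higher. With an unadjusted p under 0.05 the lower ones numbered 9 and the higher ones 0. At that threshold 688 of the 14919 loci were lower and 863 higher. The median log2 change was -0.38 against -0.04 over all tested loci. Of the 20, 18 had a negative value, where 8329 of the 14919 tested loci did. The summed FPKM was 1427 in wild type and 1046 in the knockout, and both of these groups are from lane 4.

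Cars (chromosome 7, 150743135 to 150785995) had the largest fall, from 13.1 FPKM in stressed wild type to 5.21 in stressed knockout (log2 -1.33, SE 0.22, q 0.000396 in the authors' deposited table). Gars was lower by 1.96-fold (log2 -0.97, SE 0.19, q 0.000396 in the authors' deposited table). Iars (-0.74) and Lars (-0.72) were lower with q of 0.00108 and 0.00200 in the authors' deposited table. Nars (-0.65, q 0.00678 in the authors' deposited table) and Tars (-0.62, q 0.00938 in the authors' deposited table) completed the called falls. Tars (chromosome 15, 11313418 to 11329413) read 48.2 and 118 FPKM in wild type and 40.4 and 76.7 in the knockout, and its call ended (q 0.0543) when only loci with a mean of at least 1 FPKM entered the adjustment within this comparison. Yars had a larger change than 5 of the 6, from 31.5 to 15.4 FPKM (log2 -1.03), but with an SE of 0.41 it was not called (q 0.0638 in the authors' deposited table). Wars (-0.51, q 0.0510) and Eprs (-0.49, q 0.0901) also missed the threshold in the authors' deposited table. Kars (0.02) and Farsa (0.12) were the 2 with values above 0.

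**Figure D3:**
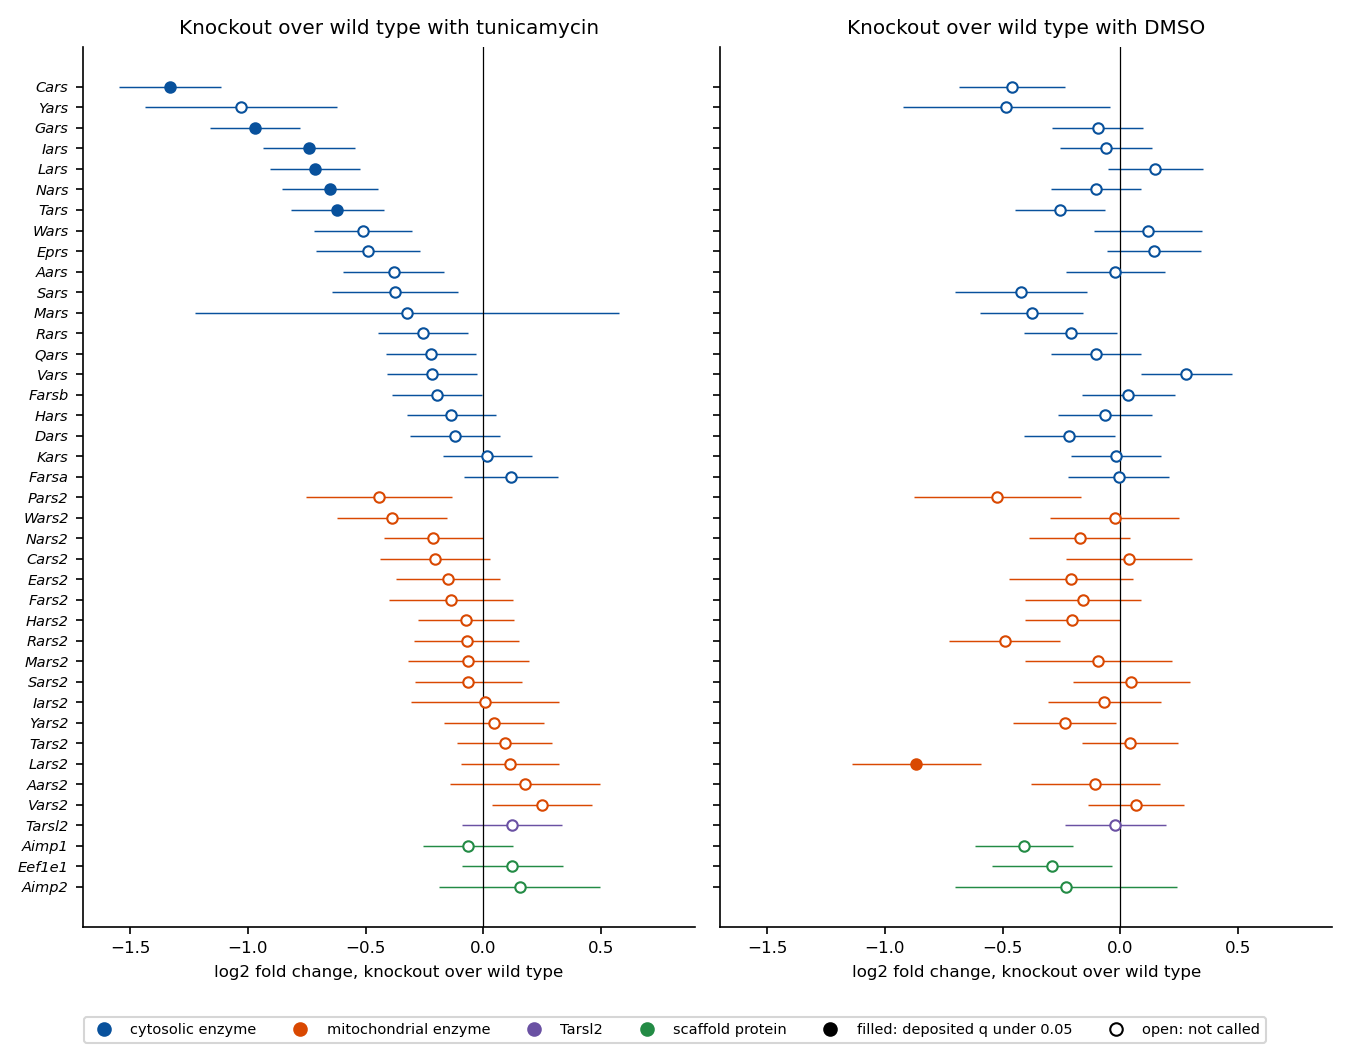
Log2 fold change of knockout over wild type with tunicamycin (left) and with DMSO (right) for each member, with bars of 1 SE. Filled points passed a deposited q under 0.05: 6 cytosolic enzymes on the left, all below 0, and Lars2 on the right.

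The genes with the letters TGATGNAA in the promoter window can be set beside these values. Under tunicamycin the log2 change of knockout over wild type ran from -1.03 to -0.38 with a median of -0.74 in the 5 cytosolic enzymes with a match, and 3 of them were called. In the 8 with a window and no match it ran from -0.49 to 0.12 with a median of -0.21, and 0 were called. Over all 14919 tested loci 2.19% were called lower and 3.73% higher, so 0 of 8 lies near those shares. The ranges overlap at Eprs (-0.49), which holds no match, and Aars (-0.38), which does. With tunicamycin the 5 and the 8 had wild-type medians of 1.30 and 0.85 and knockout medians of 0.92 and 0.78. The 3 other called genes, Cars, Lars and Nars, are among those without a window, and their promoters were not analysed here. This split of 13 genes is a description, and no test was made of it.

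Members of the multi-synthetase complex and enzymes outside it are set side by side here, with no test. Of the 8 enzymes of the complex (Dars, Eprs, Iars, Kars, Lars, Mars, Qars and Rars) 6 rose in each genotype, with medians of 1.45 (wild type) and 1.20 (knockout). Of the 12 outside it 12 and 10 rose, with medians of 1.29 and 0.99. Called lower in stressed knockout against stressed wild type were 2 of 8 and 4 of 12. Over all tested loci 18.1% rose with tunicamycin in each genotype and 2.19% were lower in the stressed knockout, and the same shares stand beside the catalytic classes. The catalytic classes of the enzymes, which are 2 unrelated folds, gave medians of 1.65 in wild type and 1.20 in the knockout for the 9 enzymes of class I, and 1.05 and 0.88 for the 10 of class II (Eprs holds both and was left out). In class I 3 of 9 and in class II 3 of 10 were called lower in stressed knockout against stressed wild type.

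The scaffold genes rose in both genotypes with 1 exception in wild type. Over all tested loci 18.1% rose in each genotype. None of the 3 was called between genotypes under stress (0 at an unadjusted p under 0.05 by Cuffdiff). Of all tested loci 2.19% were called lower there and 3.73% higher. At an unadjusted p under 0.05, 688 of the 14919 loci were lower and 863 higher. Aimp1, which also yields a secreted cytokine, read 31.9 and 56.0 FPKM in wild type and 23.98 and 53.6 in the knockout (log2 0.81 and 1.16, q 0.00200 and 0.000396 in the authors' deposited table). Eef1e1, also known as AIMP3, read 13.2 and 23.0 FPKM in wild type and 10.8 and 25.0 in the knockout (log2 0.80 and 1.21, q 0.00476 and 0.000396 in the authors' deposited table). Aimp2 read 14.8 and 28.3 FPKM in wild type and 12.6 and 31.5 in the knockout. Its log2 change was 0.93 in wild type (SE 0.40, q 0.0787, not called) and 1.32 in the knockout (q 0.0261), both in the authors' deposited table, and its mapped interval also holds the eIF2 kinase gene Eif2ak1 at 18.3 to 22.8 FPKM. In contrast to most cytosolic enzymes all 3 had differences above 0, from 0.35 to 0.41, but with intervals that reach below 0 (Aimp1 -0.21 to 0.90, Eef1e1 -0.24 to 1.07, Aimp2 -0.76 to 1.53).

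The mitochondrial enzymes passed the test at shares near those of all tested loci. In wild type 4 of 16 rose and 1 fell, where 18.1% and 19.0% of tested loci did, and in the knockout 4 rose and 0 fell, where 18.1% and 14.8% did. The medians were 0.10 and 0.35 on the log2 scale. The same 4 genes rose in both genotypes: Cars2, Wars2, Mars2 and Ears2, the enzymes for cysteine, tryptophan, methionine and glutamate. Cars2 read 8.23 and 20.5 FPKM in wild type and 8.44 and 17.8 in the knockout (2.49-fold and 2.11-fold). Wars2 read 1.73 and 3.97 FPKM in wild type and 1.70 and 3.03 in the knockout (2.30-fold and 1.79-fold). Its mapped interval also holds Mir6481, at 0.293 and 14.0 FPKM in wild type and 0.222 and 0.826 in the knockout, and how reads were shared was not tested. Mars2, at 1.80 and 3.63 FPKM in wild type and 1.69 and 3.47 in the knockout, and Ears2, at 7.72 and 15.5 and at 6.67 and 14.0, each changed by between 2.01 and 2.09-fold. None of the 16 was called between genotypes under tunicamycin by Cuffdiff. Even without adjustment, 0 had a p under 0.05. The values there ran from -0.44 (Pars2) to 0.25 (Vars2).

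Lars2, the mitochondrial leucyl enzyme (chromosome 9, 123276058 to 123371782), stood apart in level and was the 1 member that fell with tunicamycin. With DMSO it read 327 FPKM in wild type against 179 in knockout livers, and with tunicamycin 128 against 138. The wild-type DMSO group was highest and both stressed groups were close to each other. The wild-type fall was 2.56-fold (log2 -1.36, SE 0.26, q 0.000396 in the authors' deposited table), while the knockout value was -0.38 (q 0.241 in the authors' deposited table, not called). The difference between these was 0.98 (95% interval 0.30 to 1.66, p 0.00467, adjusted p 0.243). Without Lars2 the other 15 mitochondrial enzymes stood between 1.73 and 23.3 FPKM in wild type with DMSO, and their summed FPKM was 141 and 156 in wild type and 129 and 149 in the knockout.

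The other 11 mitochondrial enzymes did not pass the test in wild type or in the knockout. Their wild-type log2 values ran from -0.74 for Aars2 (8.08 to 4.83 FPKM, q 0.0525 in the authors' deposited table) to 0.64 for Pars2 (1.78 to 2.78 FPKM, q 0.143 in the authors' deposited table). Sars2 went from 5.85 to 8.80 FPKM (log2 0.59, q 0.0519 in the authors' deposited table). Fars2 (-0.54), Vars2 (-0.38), Iars2 (-0.30) and Hars2 (-0.19) had values below 0, and Tars2 (0.33), Nars2 (0.15), Rars2 (0.05) and Yars2 (0.03) above it. The mapped interval of Iars2 also holds Rab3gap2, at 5.11 and 14.6 FPKM in wild type and 5.57 and 14.7 in the knockout. In the knockout the 11 ran from -0.52 (Fars2) to 0.72 (Pars2), and each of them kept the sign it had in wild type. Tarsl2 read between 6.504 and 7.07 FPKM in all 4 groups, with log2 values of -0.03 and 0.11 for tunicamycin, whereas its relative Tars rose in both genotypes.

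Because most amino acids have an enzyme for each compartment, 17 pairs of a cytosolic and a mitochondrial gene could be compared within each group. In wild type the cytosolic to mitochondrial ratio of FPKM was higher with tunicamycin in 15 of 17 pairs, and its median went from 2.52 to 7.24. In the knockout it was also higher in 15 of 17, with medians of 3.07 and 5.23. Isoleucine was among the pairs that changed sides, with Iars at 0.565 times Iars2 in wild type with DMSO and 3.27 times with tunicamycin, and at 0.568 and 1.95 times in the knockout. Methionine and cysteine went the other way: Mars over Mars2 went from 10.8 to 7.13 in wild type, with the limit on Mars given above, and Cars over Cars2 moved from 0.891 to 0.639. In the stressed knockout Cars stood at 0.293 times Cars2, the lowest of its 4 ratios. Eprs enters 2 of these pairs and Fars2 another 2, so the 17 are not independent, and the ratios carry no test.

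**Figure D4:**
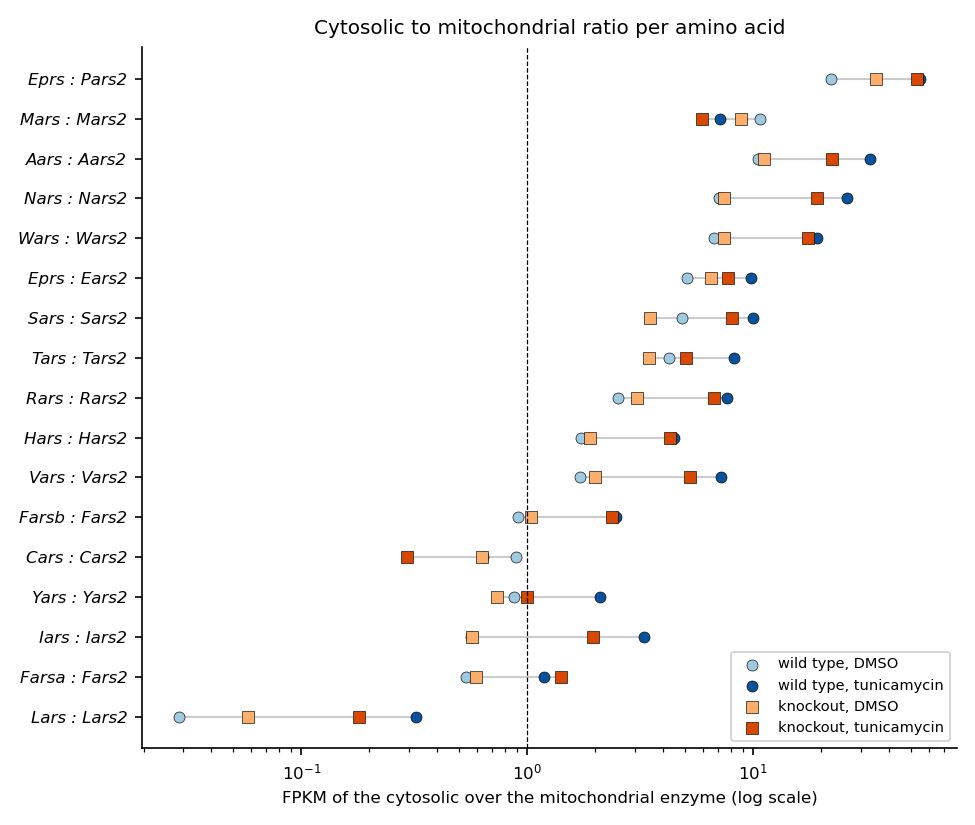
Ratio of the FPKM of the cytosolic to the mitochondrial enzyme of the same amino acid on a log axis, 1 value per group, with a dashed line at equal levels. Dark symbols stand right of the pale ones of the same shape in 15 of 17 rows; Mars over Mars2 and Cars over Cars2 go the other way.

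Without stress the knockout differed little. Cuffdiff called 0 of 20 cytosolic enzymes, where 206 of 14788 tested loci were called higher and 217 lower. At an unadjusted p under 0.05 there was 1, where 485 of those loci were higher and 570 lower. It was Cars, which went from 7.33 FPKM (wild type) to 5.33 (knockout) (log2 -0.46, p 0.0380 in the authors' deposited table). The median was -0.08, close to the -0.07 of all tested loci. The largest other values were Yars (-0.48), Sars (-0.42), Mars (-0.38) and Vars (0.28). Of the 40 members 1 was lower, Lars2 (log2 -0.87, SE 0.27, q 0.0141 in the authors' deposited table), where 1.47% of 14788 tested loci were lower. This call ended when q was computed within the comparison alone (q 0.212), and lane cannot be told apart from genotype here. Among the mitochondrial enzymes Rars2 had the only other unadjusted p under 0.05 (6.69 against 9.40 FPKM, log2 -0.49, p 0.0371 in the authors' deposited table).

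Other genes that handle tRNA and carry it to the ribosome were taken from a list of 59, of which 58 matched a locus. In each genotype 21 of 58 rose with tunicamycin, where 18.1% of tested loci did. In wild type 5 fell and in the knockout 3, where 19.0% and 14.8% of tested loci did. Cuffdiff called none of the 58 between genotypes with DMSO, where 206 of 14788 tested loci were higher and 217 lower. It also called none with tunicamycin, where 3.73% of tested loci were higher and 2.19% lower. Unadjusted p-values under 0.05 numbered 0 with DMSO, against 485 loci higher and 570 lower. With tunicamycin they numbered 2, both lower, against 863 of 14919 loci higher and 688 lower. No response differed at an adjusted p under 0.05, where 0.992% of 14510 loci did. At such shares few calls would fall among 58 genes. The median change of the 58 with tunicamycin was 0.35 in wild type and 0.44 in the knockout, below the 1.29 and 1.09 of the cytosolic enzymes.

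Several large rises were called in both genotypes. Trmt61a and Trmt6, the subunits of the enzyme that methylates an adenosine in the T loop of tRNA, went from 3.19 to 23.9 and from 5.53 to 34.3 FPKM in wild type, with log2 values of 2.90 and 2.63, and of 2.76 and 2.54 in the knockout. Elp3 of the Elongator complex, which modifies the wobble uridine, was at 1.72 and 1.83, and the RNase P subunit Rpp38 at 1.72 and 1.97. Xpot, the exportin that carries tRNA out of the nucleus, read 20.02 and 54.0 FPKM in wild type and 18.3 and 38.8 in the knockout (log2 1.43 and 1.09), and its difference of -0.34 between the responses was not called.

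The falls in both genotypes were the RNase P subunit Pop5 (-0.97 and -0.71) and the mitochondrial elongation factors Gfm1 (-0.64 and -0.75) and Gfm2 (-0.61 and -0.66). The D-aminoacyl-tRNA deacylase gene Dtd2 (-0.77) and Mtfmt, which formylates the mitochondrial initiator (-0.72), fell in wild type. In the knockout they stood at -0.60 and -0.56 and were not called (q 0.149 and 0.143 in the authors' deposited table). Their responses were not called different between genotypes. Of the 6 cytosolic elongation genes, such as Eef1a1 and Eef2, 0 were called by Cuffdiff in either genotype. Over all tested loci 18.1% rose in each, and 19.0% (wild type) and 14.8% (knockout) fell. At an unadjusted p under 0.05 there were 0 in wild type, where 3419 of 14998 loci were higher and 3586 lower. In the knockout there were 2, both higher, where 3552 of 15534 loci were higher and 3059 lower.

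**Figure D5:**
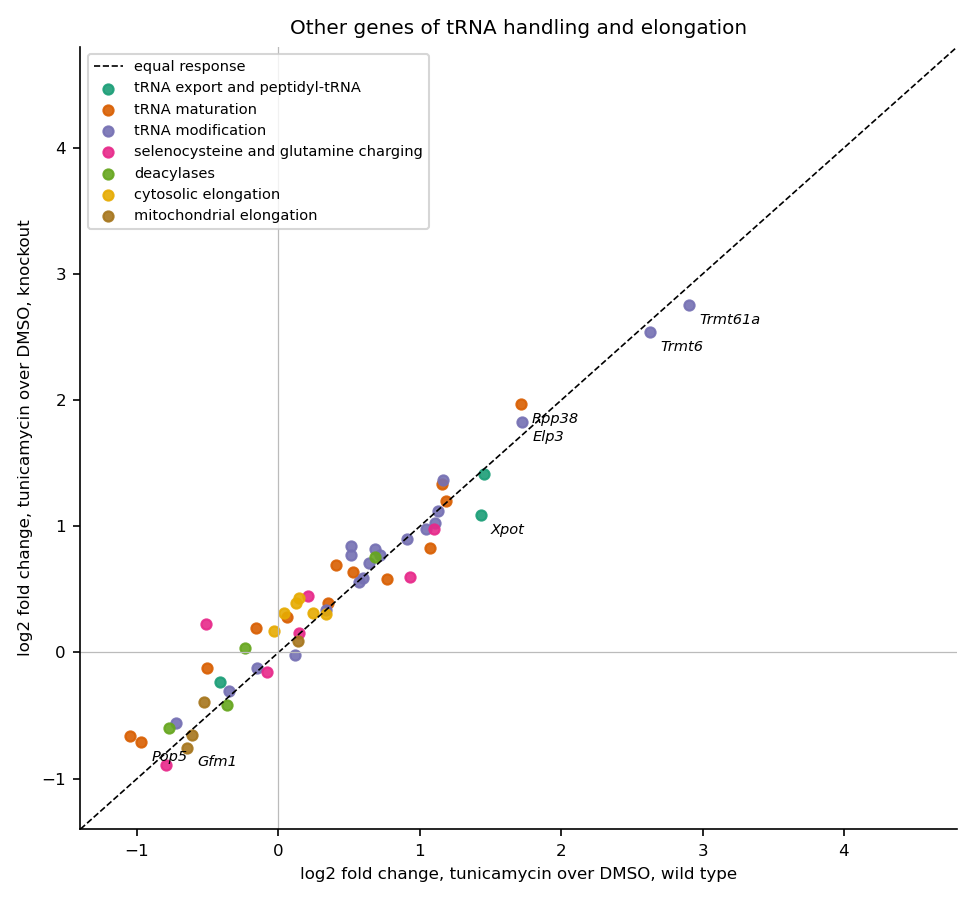
Log2 fold change with tunicamycin in wild type (horizontal axis) against the knockout (vertical axis) for other genes of tRNA handling and elongation, coloured by group, with a dashed line of equal response. Trmt61a and Trmt6 stand at the top right, near the line.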

How the data were processed

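Poly(A)-selected RNA of mouse liver was sequenced in 12 libraries. The submitters' processing notes name bcl2fastq, TopHat2 2.0.4, Cufflinks, Cuffdiff and the build mm9. Spike-in RNA was added for normalization, per the labels; the sources used here do not say whether the deposited values use it, nor give the annotation, filters or strand. Per the file headers, the authors deposited 1 FPKM per locus and group, pooled over 3 libraries. For 6 comparisons, of which 4 were used, the deposited values also hold the log2 fold change, the test statistic (a score), and p- and q-values. The deposited q-values equal a Benjamini-Hochberg adjustment over all 90828 tests within 5.29e-07, so calls in 1 comparison depend on the others. A further column without a name (1 column) was not used.

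A call is test status OK and a deposited q under 0.05. All members were tested in all 4 comparisons. Folds are ratios of the deposited FPKM. The SE of a log2 fold change is its size divided by the test statistic after 1 scale per comparison (0.579 and 0.578 for the tunicamycin responses, set from p-values above their floor of 5e-05). The difference of both responses was tested with a two-sided normal test and Benjamini-Hochberg adjustment over 14510 loci, and the procedure was tested on simulated data. Those data followed the same normal model. They checked the calculation and could not show whether the SE suit these libraries. Members, lists and the promoter motif were chosen with earlier results of these data known, and every member is named, with the pathway genes of largest called change; 1 pathway gene and 1 promoter match are not reported here. Scripts used Python 3.11.15 with scipy 1.17.1, pandas 2.3.3, numpy 2.4.6 and, for figures, matplotlib 3.10.9.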

Additional observations from a re-analysis of the deposited data

How the results depend on the processing

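The counts of cytosolic enzymes and scaffold genes called by Cuffdiff in each comparison stayed within 1.5 times under every alternative run: q within a comparison, q under 0.01, q within a comparison over loci with a mean of at least 1 FPKM, and centring on the median of all tested loci. No result reversed. Mitochondrial falls with tunicamycin in wild type numbered 2 instead of 1, with Aars2 added, when q was taken within the comparison, and likewise 2 when the FPKM minimum was added to that; the minimum was not run alone. The lower mitochondrial call with DMSO, Lars2, became 0 under q within the comparison, 0 with the FPKM minimum added to that, and 0 under q below 0.01. With the SE taken from the deposited p, which has a floor, 1 cytosolic enzyme instead of 6 had a smaller response in the knockout at an unadjusted p under 0.05, and 48 of all loci were called instead of 144. Single calls lost or gained were those of Aars, Farsa and Aimp2 (q under 0.01), Tars (q within the comparison with the FPKM minimum), and Sars2, Aars2 and Aimp2 (gained in wild type). Medians moved by less than 0.1 with a pseudocount of 1 FPKM or with centring. No paired analysis was possible because the table holds 1 value per group and no label pairs libraries, and for the same reason no library could be left out. Depth per library is unknown.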
